A study of Homo sapiens with 24 samples.

Results

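The response of MIAPACA2 cells to the PRMT5 inhibitor AM-9747 was read from 8 RNA-seq libraries of 24 in the series. The 8 were those whose titles name MIAPACA2, 4 from cells given 150 nM AM-9747 and 4 from cells given vehicle, which the series' design text calls a DMSO control, all collected on day 6. They were fitted on their own, over all genes. The other 16 libraries, 4 of each kind from BXPC3 and from PSN1, were used here only to ask where the MIAPACA2 response differed. AM-9747 was given at 100 nM in those lines, and in any difference between them the effect of dose cannot be told apart from that of line.

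MIAPACA2 is an established human pancreatic adenocarcinoma line. PRMT5 is the main enzyme that places symmetric dimethyl marks on arginines, among them those of the Sm proteins that build splicing complexes, of RNA-binding proteins and of histones, and it works bound to the partner protein WDR77. MTAP, which breaks down methylthioadenosine, is lost in many pancreatic tumours, often together with CDKN2A, and the methylthioadenosine that builds up occupies part of the PRMT5 pool. MTA-cooperative inhibitors bind that occupied form. The series describes all 3 lines as MTAP-deleted, in vehicle and AM-9747 groups alike, while its genotype label reads WT. The labels do not state that the libraries of a group came from separate cultures, so p-values measure the spread between these libraries, which may be technical.

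The MIAPACA2 libraries held 30.1 to 42.3 M counts and 21183 to 24051 genes with a count. Mitochondrial genes took 6.58% to 20.5% of the counts in vehicle and 7.23% to 16.6% with AM-9747, with a mean of 13.6% in both groups. Pearson's r of log2 values across genes was 0.948 to 0.975 within vehicle, 0.945 to 0.968 within AM-9747 and 0.919 to 0.959 between the groups, across genes that are not independent replicates. AM-9747 replicate 3 was the treated library nearest to vehicle in 58.4% of the genes that rose and 54.7% of those that fell. Vehicle replicate 4 was the vehicle library nearest to the treated ones in 41.9% and 43.6% of them. The library of each group with the lowest mitochondrial share was vehicle replicate 2 and AM-9747 replicate 3.

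AM-9747 raised and lowered similar numbers of genes in MIAPACA2. Of 18090 genes tested, 2454 (13.6%) passed, with an adjusted p below 0.05 in edgeR's quasi-likelihood test with Benjamini-Hochberg adjustment. Of these, 1219 rose (6.74% of the genes tested) and 1235 fell (6.83%). These shares are the background for every count of list members given below. The rises were larger: 660 rose and 320 fell by at least 2-fold, and 220 rose and 29 fell by at least 4-fold. In 2241 of the 2454 genes no treated library overlapped a vehicle library, which was the case in 3764 (20.8%) of all genes tested. Removing 1 library moved the total beyond 1.5 times in 4 cases, to 1265 without vehicle replicate 3 and to 1142, 1324 and 1383 without AM-9747 replicates 1, 2 and 4. With the raw library totals in place of TMM scaling, 1911 genes rose and 633 fell, a choice that shifted the median gene by 0.148 on the log2 scale. With each library's mitochondrial percentage as a covariate 6502 genes passed, and in a fit of all 24 libraries 1155.

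Rises outnumbered falls among genes of low level and falls outnumbered rises among abundant genes. Levels here are counts scaled by TMM to the library's total (CPM), averaged over all 8 libraries. Among 3377 genes under 1 CPM, 105 rose and 10 fell, and among 4944 genes at 1 to 10 CPM, 432 rose and 183 fell. Among 7981 genes at 10 to 100 CPM, 587 rose and 810 fell. Among 1788 genes at 100 CPM or more, 95 rose and 232 fell, 5.31% against 13%. Of the 220 rises of at least 4-fold, 93 were in the class under 1 CPM and 114 in that of 1 to 10 CPM. The median log2 fold change went from 0.36 in the lowest class to -0.15 in the highest. A gene of low level entered the test when either group alone had enough counts, so these counts describe the genes that passed that filter.

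**Figure D1:**
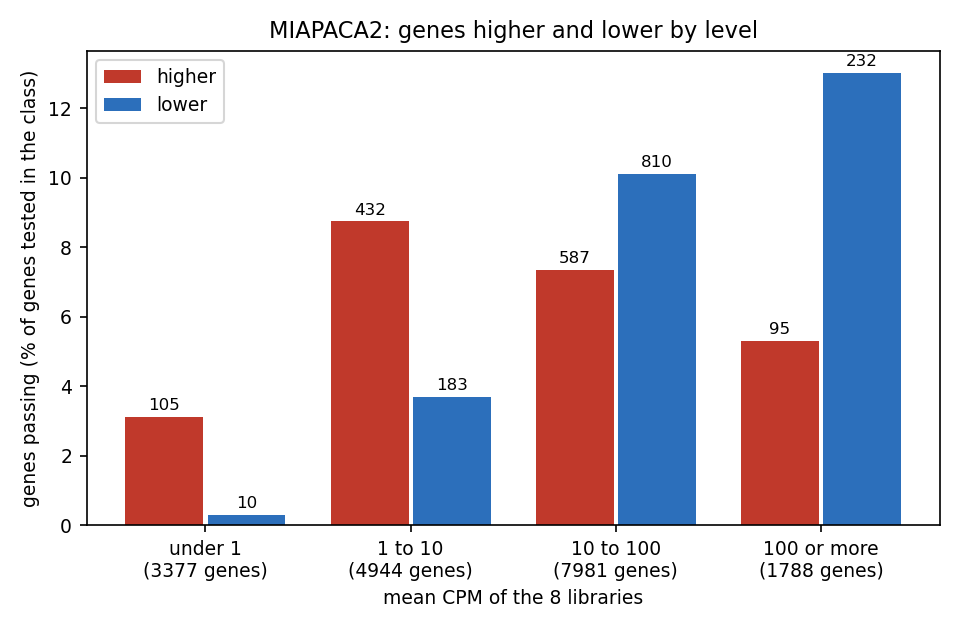
Genes that rose (red) and fell (blue) with AM-9747 in MIAPACA2, as a percentage of the genes tested in each class of mean CPM over the 8 libraries; the number above each bar is the count of genes. Rises outnumber falls under 1 CPM (105 against 10), and falls outnumber rises at 100 CPM or more (232 against 95).

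Protein-coding genes that rose had more annotated exons than those that fell. The median of the largest exon number among a gene's annotated transcripts was 13 for 983 genes that rose, 9 for 1138 that fell and 9 for 11163 that did not pass. The median gene span was 33355, 18790.5 and 32199 bases in that order. Median levels also differed, at 21.8, 35.9 and 23.8 CPM, and their part in the difference in structure was not tested.

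**Figure D2:**
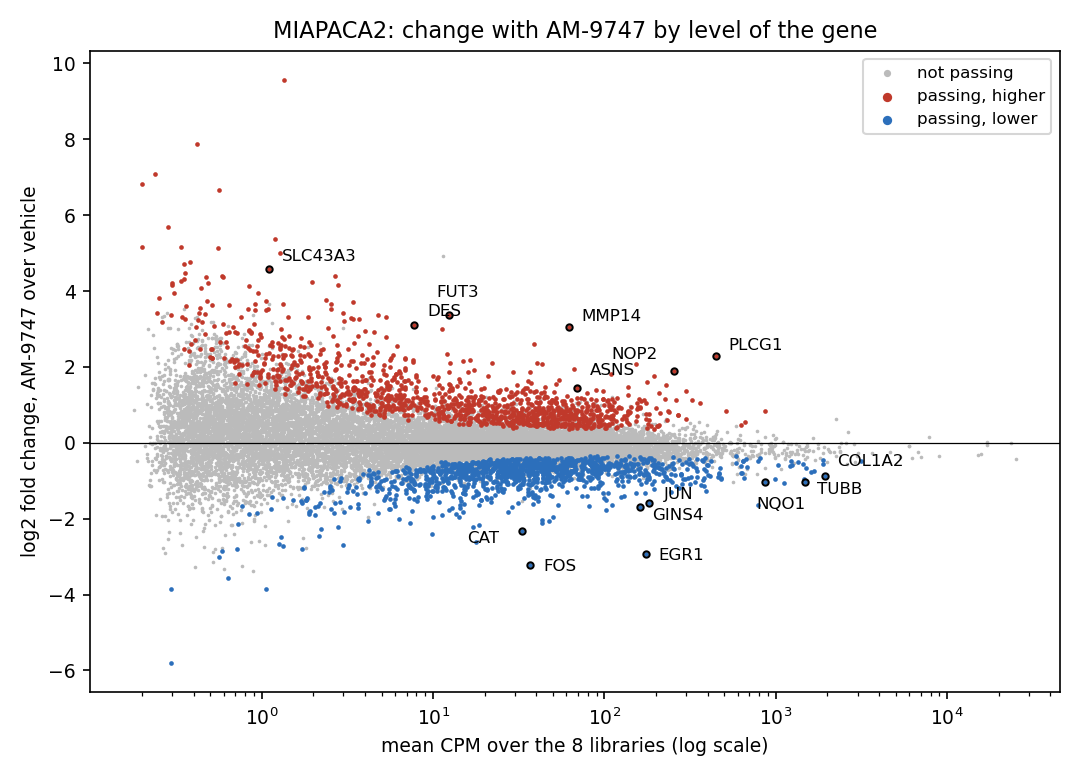
Each point is 1 of 18090 genes: mean CPM over the 8 libraries on a log axis against the log2 fold change of AM-9747 over vehicle. Red and blue points passed the test; the named genes are examples described in the text, and the points below 10 CPM lie mostly above 0 when they passed.

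No change was detectable in the transcript of the enzyme that AM-9747 targets. PRMT5 stood at 44.7, 73.1, 61.2 and 35.3 CPM in vehicle replicates 1 to 4 and at 40.6, 45.1, 71.5 and 48.3 CPM in AM-9747 replicates 1 to 4, a log2 fold change of -0.06 ± 0.24 (SE of the fit, 4 libraries a group; edgeR adjusted p = 0.895). The groups overlapped, and in each the highest value was in the library with the lowest mitochondrial share. WDR77 was at 35.8, 40.4, 45.0 and 41.3 CPM and 27.3, 27.4, 35.6 and 34.5 CPM, with no overlap of the groups, but its log2 fold change of -0.38 ± 0.14 did not pass (edgeR adjusted p = 0.0953). MTAP was at 0.864, 0.460, 0.265 and 1.48 CPM and 1.86, 0.662, 1.08 and 1.56 CPM, near the lower limit of detection and with overlapping groups. CDKN2A had 0 counts in all 8 libraries, where a count of 0 allows up to 3 counts a library.

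MAT2A, the enzyme that makes the methyl donor S-adenosylmethionine, was lower in every treated library. It was at 388, 600.3, 578 and 525 CPM in vehicle and 216, 212, 343 and 177 CPM with AM-9747, a log2 fold change of -1.14 ± 0.21 (edgeR adjusted p = 0.00636), a call not reached in the fit of all 24 libraries. Of 29 genes of the methionine cycle and polyamine synthesis, 5 fell and 1 rose. CBS, which passes homocysteine on towards cysteine, fell (log2 -0.65 ± 0.11; not passing in the fit of all 24 libraries), and so did MRI1, the step of methylthioadenosine salvage that follows MTAP (log2 -0.64 ± 0.12). The count of falls was 3 without vehicle replicate 3 or AM-9747 replicate 1 or 4. Among 10 other arginine methyltransferase genes tested, PRMT6 fell by 0.83 on the log2 scale, a call not reached in the fit of all 24 libraries. The only other call of that list, PRMT7 (edgeR adjusted p = 0.0435), was lost without any single library except vehicle replicate 2.

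Growth factor ligands, receptors and their relays each held rises and falls. Of 24 ligand genes, 4 rose and 4 fell. HBEGF, a ligand of the epidermal growth factor receptor, rose from 5.22 ± 0.805 to 11.6 ± 0.776 CPM (SD, n = 4; log2 fold change 1.15 ± 0.18, edgeR adjusted p = 0.00246), while GAS6, the ligand of the receptor AXL, fell from 29.1 ± 4.11 to 12.3 ± 1.08 CPM (-1.25 ± 0.15, edgeR adjusted p = 0.000788). BTC, another ligand of the epidermal growth factor receptor, fell (log2 -0.88 ± 0.16) and the insulin-like growth factor gene IGF2 rose (log2 0.74 ± 0.12). GAS6, BTC and IGF2 did not pass in the fit of all 24 libraries. Rises numbered 2 without AM-9747 replicate 1, and falls 2 without vehicle replicate 1, 2 or 3 or AM-9747 replicate 1, 2 or 4. Of 24 receptor genes, FGFR3 and RET rose and ERBB3 and EPHB4 fell, 8.33% each way beside 6.74% and 6.83% of all genes tested. These 4 calls were thin: RET was lost without AM-9747 replicate 1, and the falls numbered 1 without vehicle replicate 1 or 2, 0 without vehicle replicate 3 or AM-9747 replicate 1, 2 or 4, and 6 without AM-9747 replicate 3.

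Below the receptors, PLCG1 had one of the largest changes of any well expressed gene. Gene coordinates are those of GENCODE 29 on GRCh38. PLCG1 (ENSG00000124181, chr20:41136960-41196801, + strand), the phospholipase C that receptors recruit to cleave membrane phosphoinositides, stood at 162, 138, 146 and 165 CPM in vehicle and 808, 907, 518 and 745 CPM with AM-9747. Every treated library was above every vehicle library, and the lowest treated value was that of replicate 3. It rose 4.88-fold (log2 2.29 ± 0.17, edgeR adjusted p = 0.000239). Its exons overlap PLCG1-AS1 and ZHX3 on the opposite strand, and whether counting used strand is not given in the sources used here. Its paralog PLCG2 rose from 29.6 ± 2.03 to 48.5 ± 1.67 CPM (log2 0.71 ± 0.11), and BRAF, a kinase that relays the RAS signal, rose from 44.7 ± 6.85 to 79.3 ± 7.36 CPM (log2 0.83 ± 0.14, edgeR adjusted p = 0.00353). SHC1, the adaptor that couples receptors to RAS, fell from 536 ± 21.2 to 295 ± 63.5 CPM (log2 -0.86 ± 0.15, edgeR adjusted p = 0.00422); its exons overlap those of PYGO2 on the same strand. Among 34 relay genes, 5 rose and 1 fell, with a median log2 fold change of -0.06 and 19 values below 0. The falls numbered 4 without AM-9747 replicate 3, 3 without vehicle replicate 4 and 2 without vehicle replicate 1. With the mitochondrial percentage as a covariate the order turned, to 5 rises and 10 falls.

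At the transcription factor end of the pathway, the immediate early genes of the FOS, JUN and EGR families were lower. These are genes that growth factor signals through ERK switch on within minutes and that then drive later genes. EGR1 (ENSG00000120738, chr5:138465490-138469315, + strand) was at 324, 240.1, 308 and 361 CPM in vehicle and at 38.5, 37.8, 49.3 and 36.6 CPM with AM-9747, 7.61-fold lower (log2 -2.93 ± 0.16, edgeR adjusted p = 3.47e-05). The groups were far apart, with the lowest vehicle library several times above the highest treated one. FOS (ENSG00000170345, chr14:75278774-75282230, + strand) was at 77.7, 40.6, 58.8 and 89.9 CPM and 9.58, 7.42, 6.97 and 4.77 CPM, 9.28-fold lower (log2 -3.21 ± 0.28, edgeR adjusted p = 0.000252).

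The same held for other members. JUN was at 237, 228, 255 and 373 CPM in vehicle and 102, 114, 70.1 and 75.4 CPM with AM-9747 (log2 -1.6 ± 0.21, edgeR adjusted p = 0.00118), with vehicle replicate 4 the highest of its group. FOSB went from 21.4 ± 5.17 to 5.83 ± 1.89 CPM (log2 -1.87 ± 0.26). JUNB, KLF6 and the RNA-decay factor ZFP36L1, named after their values were seen, fell by 1.4, 0.85 and 0.97 on the log2 scale. Of 33 immediate early genes tested, 14 fell (42.4%) and 4 rose (12.1%), with a median log2 fold change of -0.65 beside -0.00214 over all genes tested. Without AM-9747 replicate 1 the falls numbered 8, and the rises numbered 2 without vehicle replicate 3 or AM-9747 replicate 4.

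A smaller group of stress-responsive factors in the same list went up. NR4A2, an orphan nuclear receptor, was at 0.684, 0.522, 0.988 and 0.553 CPM in vehicle and 3.01, 3.85, 3.44 and 4.8 CPM with AM-9747, 5.45-fold higher (log2 2.45 ± 0.33, edgeR adjusted p = 0.0014). ATF3 was at 3.60, 2.76, 2.39 and 3.53 CPM and 8.95, 10.2, 9.91 and 8.03 CPM, with no overlap (log2 1.6 ± 0.21, edgeR adjusted p = 0.00122). MYC was at 135, 179, 191 and 136 CPM and 81.7, 75.5, 131 and 88.3 CPM (log2 -0.77 ± 0.19, edgeR adjusted p = 0.0249), but did not pass without vehicle replicate 3 (0.0735) or AM-9747 replicates 1, 2 or 4 (0.0897, 0.0710 and 0.0789 in turn), nor with raw library totals.

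The promoter of EGR1 is shown because it is one of the best known targets of serum response factor, whose binding motif is the CArG box. The 60 bases from 120 to 61 before its start, chr5:138465359-138465418 (+) in RefSeq's GRCh38.p14, hold 2 CArG boxes, in capitals, whose first bases lie at -105 and -83.
EGR1: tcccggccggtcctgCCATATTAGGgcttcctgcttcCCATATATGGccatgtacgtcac
A CArG box on either strand occurred in the window from 250 bases before to 50 after the start of 1.29% of 27305 promoters. Of the 14 immediate early genes that fell, 11 had a promoter sequence and EGR1 was the 1 with this motif there. A match describes letters and is no evidence of binding.

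Genes that restrain or report ERK output divided. DUSP1, a phosphatase that switches off MAP kinases, was at 77.4, 65.3, 69.4 and 67.8 CPM in vehicle and 16.4, 11.9, 25.5 and 10.8 CPM with AM-9747, 4.34-fold lower (log2 -2.12 ± 0.25, edgeR adjusted p = 0.000767). The feedback inhibitors SPRY1 and SPRY2 fell from 112 ± 5.68 to 63.3 ± 6.19 CPM and from 356 ± 26.6 to 199.6 ± 30.3 CPM (log2 -0.83 ± 0.11 and -0.84 ± 0.13). In the other direction, the ERK target PLAUR, the urokinase receptor, rose from 17.3 ± 1.62 to 44.2 ± 4.87 CPM (log2 1.35 ± 0.14, edgeR adjusted p = 0.00038), the transcription factor ETV4 rose by 0.91, and the ERK phosphatase DUSP6, named after its values were seen, was at 0.828, 0.798, 0.554 and 0.738 CPM and 2.51, 2.56, 1.62 and 2.30 CPM (log2 1.62 ± 0.34, edgeR adjusted p = 0.0121). In all, 5 of 28 such genes rose and 4 fell, and 8 rose with raw library totals.

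**Figure D3:**
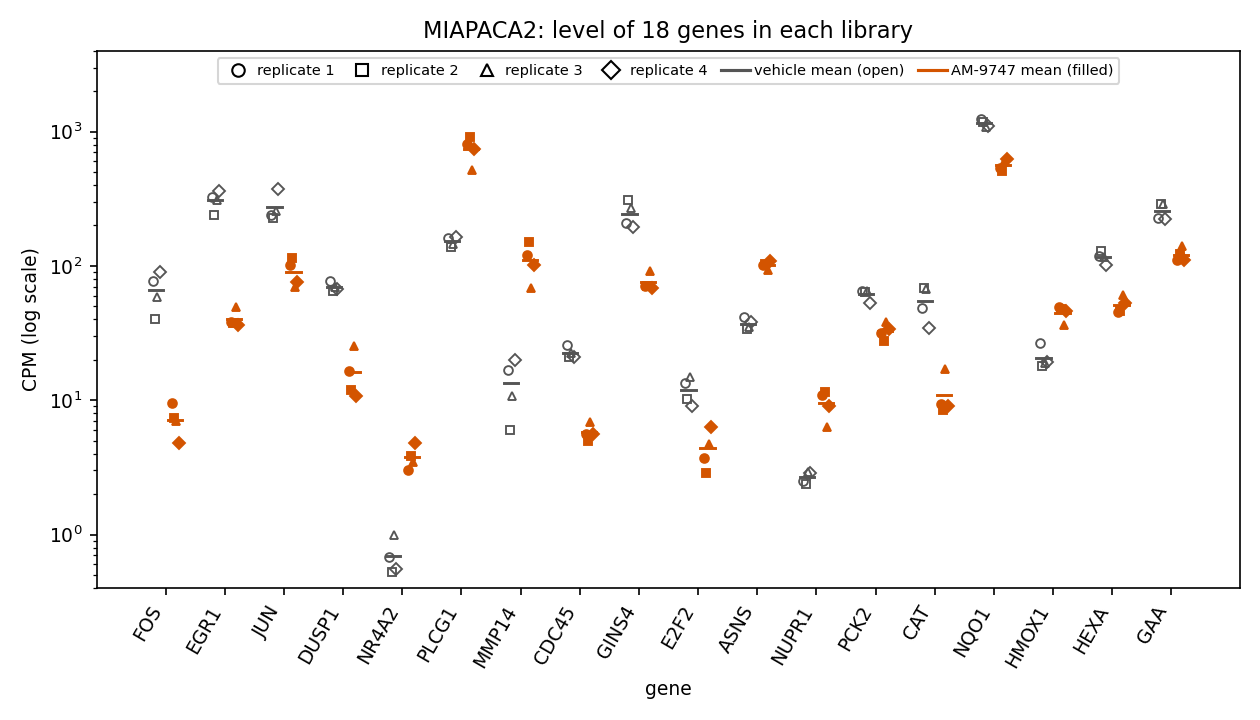
Level of 18 genes in each of the 8 MIAPACA2 libraries, in CPM on a log axis: open grey symbols are vehicle, filled orange symbols AM-9747, symbol shape is the replicate number and bars are group means. The groups do not overlap for any of the 18; AM-9747 replicate 3 lies nearest to vehicle for PLCG1, MMP14, CAT, GAA and HEXA, among others.

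The DNA replication programme was lower with AM-9747. Of 68 genes of replication and the G1/S transition, 27 fell (39.7%) and 1 rose, and 55 were below 0, with a median log2 fold change of -0.48. The falls numbered 19 to 33 as each library was left out in turn, and 19 with raw library totals; the 1 rise, POLE4, was lost without vehicle replicate 1 or 3 or AM-9747 replicate 1, 2 or 4, and 2 genes rose without vehicle replicate 2 or AM-9747 replicate 3. In bulk RNA, fewer cells in S phase and less of these RNAs per cell cannot be told apart. CDC45 (ENSG00000093009, chr22:19479459-19520612, + strand), which joins the MCM and GINS proteins into the helicase that opens DNA, was at 25.7, 21, 22.3 and 21.1 CPM in vehicle and 5.57, 4.98, 6.91 and 5.60 CPM with AM-9747. The replicates of each group lay close together and the groups did not overlap, for a 3.90-fold decrease (log2 -1.97 ± 0.16, edgeR adjusted p = 0.000239).

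Each part of that helicase had members that fell. GINS4 was at 208, 311, 269 and 193 CPM and 71.2, 70.4, 91.4 and 68.7 CPM (log2 -1.70 ± 0.17, edgeR adjusted p = 0.000406), and GINS2 went from 32.6 ± 1.69 to 14.6 ± 1.11 CPM (log2 -1.15 ± 0.12). Of the MCM ring, MCM5 went from 52.0 ± 2.89 to 20.3 ± 5.60 CPM (log2 -1.36 ± 0.18, edgeR adjusted p = 0.00122), and MCM3, MCM4 and MCM7, named after their values were seen, fell by 0.67, 1.41 and 0.82 on the log2 scale. TK1, which makes thymidine nucleotides in S phase, went from 64.3 ± 4.69 to 27.4 ± 5.96 CPM (log2 -1.23 ± 0.16). The sliding clamp PCNA fell by 0.72, the licensing factor CDC6 by 0.92, DTL, which marks licensing factors for destruction, by 1.19, and UHRF1, which copies DNA methylation at the fork, by 0.90; these 4 were also named after their values were seen. PCNA and GINS2 did not pass in the fit of all 24 libraries.

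The activating E2F factors that switch on this programme were themselves lower. E2F1 was at 36.1, 29.6, 38 and 40.1 CPM in vehicle and 19.6, 17.8, 22.8 and 22.9 CPM with AM-9747 (log2 -0.79 ± 0.15, edgeR adjusted p = 0.00613). E2F2 was at 13.4, 10.3, 14.8 and 9.01 CPM and 3.72, 2.88, 4.70 and 6.31 CPM (log2 -1.43 ± 0.27, edgeR adjusted p = 0.00653). In both genes all treated libraries were below all vehicle libraries, with a narrow gap in E2F2, whose call was not reached in the fit of all 24 libraries. Both were named after their values were seen.

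The promoters of 6 of these genes are shown because E2F proteins bind a short motif next to the start of many replication genes. Each line gives 60 bases from RefSeq's GRCh38.p14, with the E2F site in capitals: TTTGGCGC in E2F1, E2F2 and DTL, and TTTCCCGC, read on the other strand as GCGGGAAA, in MCM7, PCNA and GINS2. The places are chr20:33686386-33686445 (-), chr1:23531234-23531293 (-), chr1:212035688-212035747 (+), chr7:100101548-100101607 (-), chr20:5126643-5126702 (-) and chr16:85688955-85689014 (-), in the order printed.
E2F1: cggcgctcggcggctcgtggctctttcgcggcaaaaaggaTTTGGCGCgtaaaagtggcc
E2F2: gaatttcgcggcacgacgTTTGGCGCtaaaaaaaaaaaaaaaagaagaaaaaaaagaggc
DTL: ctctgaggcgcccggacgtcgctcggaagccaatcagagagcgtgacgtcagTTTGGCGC
MCM7: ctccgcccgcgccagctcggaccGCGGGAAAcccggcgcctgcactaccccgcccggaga
PCNA: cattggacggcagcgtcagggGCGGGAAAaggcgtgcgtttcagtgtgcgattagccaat
GINS2: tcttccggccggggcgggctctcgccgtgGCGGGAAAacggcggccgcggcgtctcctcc
The window of MCM7 lies 210 to 151 bases before its start, that of PCNA 80 to 21, and the other 4 end at the base before the start. Either form of the E2F site, on either strand, was present in the 300-base window of 2.31% of 27305 promoters and of 3.59% of the 11210 genes tested that had a promoter sequence. The share was 2.62% among genes that rose and 4.55% among genes that fell. In the replication list it was 42.9% (24 of 56 with a sequence), and 65.2% (15 of 23) of those that fell. POLE4, the 1 replication gene that rose, also had the site, with its first base at -31. Pooling the 2 forms was chosen after the data were seen, and absence from this window says nothing of sites elsewhere.

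Fewer mitotic genes than replication genes passed. Of 66 genes of mitosis and the kinetochore, 7 fell (10.6%) and 1 rose, with a median log2 fold change of -0.23; the falls numbered 11 without vehicle replicate 4 and 4 without AM-9747 replicate 1. The 1 rise, KIF14, was lost without any single library except vehicle replicate 2 or AM-9747 replicate 3, where 2 genes rose. KIF20A, a motor of the dividing cell's midzone, was at 109, 104, 107 and 105 CPM in vehicle and 62.3, 66.2, 59.7 and 75.1 CPM with AM-9747 (log2 -0.69 ± 0.11, edgeR adjusted p = 0.00308). CDC25B, the phosphatase that starts mitosis, went from 228 ± 27.7 to 129.7 ± 16.5 CPM (log2 -0.81 ± 0.13). CDK4, the kinase that drives G1, was at 125, 142, 141 and 111 CPM and 53.7, 54.2, 86.5 and 56.1 CPM, with treated replicate 3 the nearest to vehicle (log2 -1.05 ± 0.17, edgeR adjusted p = 0.00341).

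Among repair genes that act by recombination, falls exceeded the share over all genes tested and rises did not. Of 45 genes of recombination and the Fanconi anaemia pathway, 8 fell (17.8%) and 3 rose (6.67%), beside 6.83% and 6.74% of all genes tested. The falls numbered 5 without vehicle replicate 3 or AM-9747 replicate 2 or 4, and 3 without AM-9747 replicate 1. FANCG, of the Fanconi core complex, fell (log2 -0.85 ± 0.12). RAD52, an annealing protein, was at 14.8, 11.6, 16.4 and 26.9 CPM in vehicle and 57.1, 64.9, 36.6 and 56.9 CPM with AM-9747, 3.09-fold higher (log2 1.63 ± 0.26, edgeR adjusted p = 0.00302). ATM, the kinase that senses double-strand breaks, rose from 98.6 ± 12.8 to 176 ± 30.4 CPM (log2 0.84 ± 0.15).

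Genes of growth arrest and cell death moved singly. CDKN1A, an inhibitor of cyclin-dependent kinases, was at 3.63, 4.70, 4.89 and 3.38 CPM in vehicle and 3.61, 2.33, 4.91 and 4.14 CPM with AM-9747, and MDM4, whose splicing depends on PRMT5, was at 49.6, 35.5, 42.5 and 62.7 CPM and 43.9, 53.4, 42.7 and 43.8 CPM; neither passed (edgeR adjusted p = 0.756 and 0.881). FDXR, a mitochondrial reductase, fell (log2 -1.27 ± 0.16), and the repair gene DDB2 rose from 23.4 ± 0.488 to 42.9 ± 4.14 CPM (log2 0.88 ± 0.12). Of 15 BCL2 family genes, PMAIP1, the death-promoting protein NOXA, rose from 9.75 ± 0.751 to 21.5 ± 1.35 CPM (log2 1.14 ± 0.13, edgeR adjusted p = 0.000788), while BMF and BOK, also death-promoting, fell (log2 -0.93 ± 0.16 and -0.85 ± 0.17). BCL2L2 and MCL1, which protect from death, fell too, and the 4 falls were 2 without vehicle replicate 3 or AM-9747 replicate 1 or 4.

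Part of the amino acid arm of the integrated stress response rose. This programme, run by the transcription factor ATF4, raises genes that make and import amino acids. ASNS (ENSG00000070669, chr7:97852118-97872542, - strand), which makes asparagine, was at 41.6, 33.8, 35.2 and 38 CPM in vehicle and 101, 104, 93.8 and 109 CPM with AM-9747. The treated libraries lay close together and all above vehicle, for a 2.75-fold increase (log2 1.46 ± 0.12, edgeR adjusted p = 0.000239). Its exons overlap those of AC079781.5 on the same strand. NUPR1, a stress-induced nuclear protein, was at 2.52, 2.36, 2.94 and 2.89 CPM and 11, 11.5, 6.32 and 9.01 CPM (log2 1.82 ± 0.23, edgeR adjusted p = 0.00118).

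Of 30 genes of this response and of serine synthesis, 10 rose (33.3%) and 3 fell, with a median log2 fold change of 0.32, and 8 to 11 rose as each library was left out. The cytokine GDF15 was at 0.864, 1.17, 0.819 and 1.66 CPM and 5.05, 6.70, 4.13 and 2.78 CPM (log2 2.05 ± 0.36), and TRIB3, which damps ATF4, rose from 28.3 ± 1.83 to 48.1 ± 2.85 CPM (log2 0.77 ± 0.11). PHGDH, the entry step of serine synthesis, named after its values were seen, and SLC3A2, a chain of amino acid transporters, rose by 0.73 and 0.60, calls not reached in the fit of all 24 libraries. PCK2, a mitochondrial enzyme that feeds this pathway, went the other way, from 61.8 ± 5.92 to 32.9 ± 4.42 CPM (log2 -0.91 ± 0.14, edgeR adjusted p = 0.00217), as did DDIT4, an inhibitor of mTOR named after its values were seen, which fell by 0.73. PSAT1, the step of serine synthesis after PHGDH and also named after its values were seen, was the third gene of the list to fall, from 98.2 ± 9.16 to 75.6 ± 3.71 CPM (log2 -0.38 ± 0.11, edgeR adjusted p = 0.0483), a call lost in the fit of all 24 libraries and without any 1 library except vehicle replicate 4.

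The promoter of ASNS is shown because a C/EBP-ATF element near its start is the classical site of this response. The line gives bases 90 to 31 before the start, chr7:97872439-97872498 (-) in RefSeq's GRCh38.p14, with the element in capitals at -68.
ASNS: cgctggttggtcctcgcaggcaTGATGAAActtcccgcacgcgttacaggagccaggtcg
The element, searched as TGATGNAA on both strands, was present in 3.67% of 27305 promoters and 1.73% of the genes tested with a promoter sequence. The share was 1.88% among all genes that rose. Among the stress response genes tested with a sequence it was 20.8% (5 of 24), whether or not they rose. Of those that rose, 3 of 8 had it, which are ASNS, ATF3 and SLC3A2.

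Genes that handle peroxide and glutathione were among the largest falls. CAT (ENSG00000121691, chr11:34438925-34472062, + strand), the catalase that removes hydrogen peroxide, was at 48.3, 69.1, 67.1 and 34.6 CPM in vehicle and 9.37, 8.51, 17.1 and 9.01 CPM with AM-9747, 4.99-fold lower (log2 -2.32 ± 0.28, edgeR adjusted p = 0.000948). The groups did not overlap, and vehicle replicate 4 was the lowest of its group. OPLAH, which recycles glutathione breakdown products, was at 29.9, 25.2, 27.1 and 38.6 CPM and 6.80, 7.02, 8.14 and 5.02 CPM (log2 -2.16 ± 0.19, edgeR adjusted p = 0.000283).

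The quinone reductase NQO1, an abundant transcript here, was at 1235, 1183, 1091 and 1110.3 CPM in vehicle and 535, 508, 597 and 625 CPM with AM-9747 (log2 -1.03 ± 0.12, edgeR adjusted p = 0.000624). The glutathione transferase GSTM3 also fell (log2 -0.96 ± 0.18). HMOX1, the haem oxygenase that shares regulation with NQO1, rose from 20.7 ± 3.96 to 44.9 ± 5.69 CPM (log2 1.12 ± 0.16), a call not reached in the fit of all 24 libraries. Of 42 such genes, 6 fell (14.3%) and 3 rose (7.14%), beside 6.83% and 6.74% of all genes tested. Without AM-9747 replicate 2, 1 rose. The list's median was -0.12 and was 0.03 with raw library totals.

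Lysosomal genes moved both ways, with more falls than rises. HEXA, GAA, MAN2B1 and the cathepsin CTSD were among the falls, and the cathepsins CTSH and CTSZ among the rises. HEXA (ENSG00000213614, chr15:72340919-72376476, - strand), which trims gangliosides, was at 118, 129, 117 and 102 CPM in vehicle and 45.8, 46.4, 60.9 and 52.9 CPM with AM-9747, 2.26-fold lower (log2 -1.18 ± 0.13, edgeR adjusted p = 0.000639). GAA, which digests lysosomal glycogen, was at 229, 289, 287 and 224 CPM and 111, 122, 142 and 110.4 CPM (log2 -1.09 ± 0.14, edgeR adjusted p = 0.00114). Both genes were separated between the groups, and in each the treated replicate 3 was the highest treated value. MAN2B1, a mannosidase, fell by 1.05 on the log2 scale.

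CTSH rose from 46.4 ± 2.99 to 72.2 ± 3.34 CPM (log2 0.64 ± 0.11, edgeR adjusted p = 0.00387) and CTSZ from 149 ± 10.6 to 208 ± 21.7 CPM (log2 0.48 ± 0.12, edgeR adjusted p = 0.0211). Both were named after their values were seen and neither passed in the fit of all 24 libraries; CTSZ was also lost without vehicle replicate 3 or AM-9747 replicate 1 or 4. In the whole lysosome and autophagy list 9 of 36 genes fell (25%) and 3 rose. The rises numbered 5 without AM-9747 replicate 3, and with raw library totals 6 fell and 6 rose. WIPI1, an early autophagy protein and the third rise, went from 7.54 ± 1.16 to 17.3 ± 3.41 CPM (log2 1.20 ± 0.19). ACP2, a lysosomal phosphatase among the largest falls, went from 42.8 ± 5.13 to 12 ± 2.31 CPM (log2 -1.83 ± 0.17). Other enzymes of metabolism among the largest falls were ACAD9, a complex I assembly factor, at 79.3, 90.0, 77.1 and 57.7 CPM and 15.2, 15.6, 24.7 and 18 CPM (log2 -2.05 ± 0.19), and PYCR3, which makes proline (log2 -1.94 ± 0.21). Of 77 nuclear genes of oxidative phosphorylation, 5 fell (6.49%, beside 6.83% of all genes tested) and 1 rose (1.3%, beside 6.74%); the falls numbered 2 without vehicle replicate 1 or 3 or AM-9747 replicate 1, and 3 without AM-9747 replicate 2.

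Splicing factors changed gene by gene, with more falls than rises among RNA-binding proteins. Core components had more rises than falls, though not with the mitochondrial percentage as a covariate. Of 42 SR protein and hnRNP genes, 10 fell (23.8%) and 2 rose. HNRNPA1, an abundant repressor of exons, was at 2259.6, 1883, 1839 and 2111 CPM in vehicle and 1203, 1137, 1053 and 1371 CPM with AM-9747 (log2 -0.76 ± 0.13, edgeR adjusted p = 0.00374). HNRNPR went from 128 ± 34.3 to 59.0 ± 13.6 CPM (log2 -1.12 ± 0.22), a call not reached in the fit of all 24 libraries, and HNRNPH3 rose from 201 ± 10.6 to 334 ± 51.3 CPM (log2 0.73 ± 0.13). The falls numbered 6 without vehicle replicate 3 or AM-9747 replicate 2 or 4, 5 without AM-9747 replicate 1 and 5 with raw library totals, while the 2 rises, HNRNPH3 and RBM39, became 4 without AM-9747 replicate 3 and 1 without any other library except vehicle replicate 4.

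Of 45 core spliceosome genes, 6 rose (13.3%) and SF3B3 and PRPF19 fell (4.44%), beside 6.74% and 6.83% of all genes tested. The median was -0.03, with 25 values below 0, and was 0.11 with raw library totals. The rises numbered 4 without vehicle replicate 1, 4 without vehicle replicate 2 and 8 with raw library totals. With the mitochondrial percentage as a covariate 12 rose and 12 fell, in a fit where 3037 of all genes rose and 3465 fell. The falls numbered 4 without AM-9747 replicate 3 and 1 without vehicle replicate 3 or AM-9747 replicate 1, 2 or 4. PRPF39, a U1 snRNP protein, was at 41.0, 32.9, 32.8 and 54.2 CPM and 89.0, 106, 74.3 and 81.3 CPM (log2 1.12 ± 0.18, edgeR adjusted p = 0.00333). The helicase DDX46 rose from 82.2 ± 7.65 to 156 ± 10.9 CPM (log2 0.93 ± 0.12) and XAB2 by 0.77. SF3B3, a subunit of the complex that recognises branch points, was at 409, 573, 479.6 and 349.6 CPM and 187, 179.7, 293 and 228 CPM, with treated replicate 3 the nearest to vehicle (log2 -1.03 ± 0.19, edgeR adjusted p = 0.00674). Of 34 genes of the Sm, LSm and SMN group, whose Sm proteins carry PRMT5's marks, SNRPN, an Sm protein typical of neurons, fell (log2 -0.80 ± 0.12). LSM10, of the histone mRNA processing particle, was the 1 that rose, and did not pass without vehicle replicate 1, 2 or 3 or AM-9747 replicate 1, 2 or 4.

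Of 79 cytosolic ribosomal protein genes, 11 fell and 0 rose. The other 68 did not pass; over the 79 the log2 fold change ran from -0.78 to 0.03 with a median of -0.25, and 77 values lay below 0. Many ribosomal protein genes have near-identical copies elsewhere in the genome that can share their reads. RPL10 went from 2079 ± 144 to 1239.7 ± 131 CPM (log2 -0.75 ± 0.12, edgeR adjusted p = 0.00331). The count of falls depended on the fit. It was 5 without vehicle replicate 1, 4 without vehicle replicate 3 or AM-9747 replicate 2, and 1 without AM-9747 replicate 1. With raw library totals it was 3, with a median of -0.10 beside 0.147 over all genes. With the mitochondrial percentage as a covariate 49 fell and 0 rose, in a fit where 3465 of all genes fell. NOP2, a methyltransferase of ribosomal RNA, was higher, at 127, 87.1, 96.8 and 122 CPM in vehicle and 418, 463, 294 and 426 CPM with AM-9747, 3.70-fold higher (log2 1.89 ± 0.18, edgeR adjusted p = 0.000322). Its exons overlap those of AC006064.6 on the same strand, so reads of the 2 cannot be separated with certainty.

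**Figure D4:**
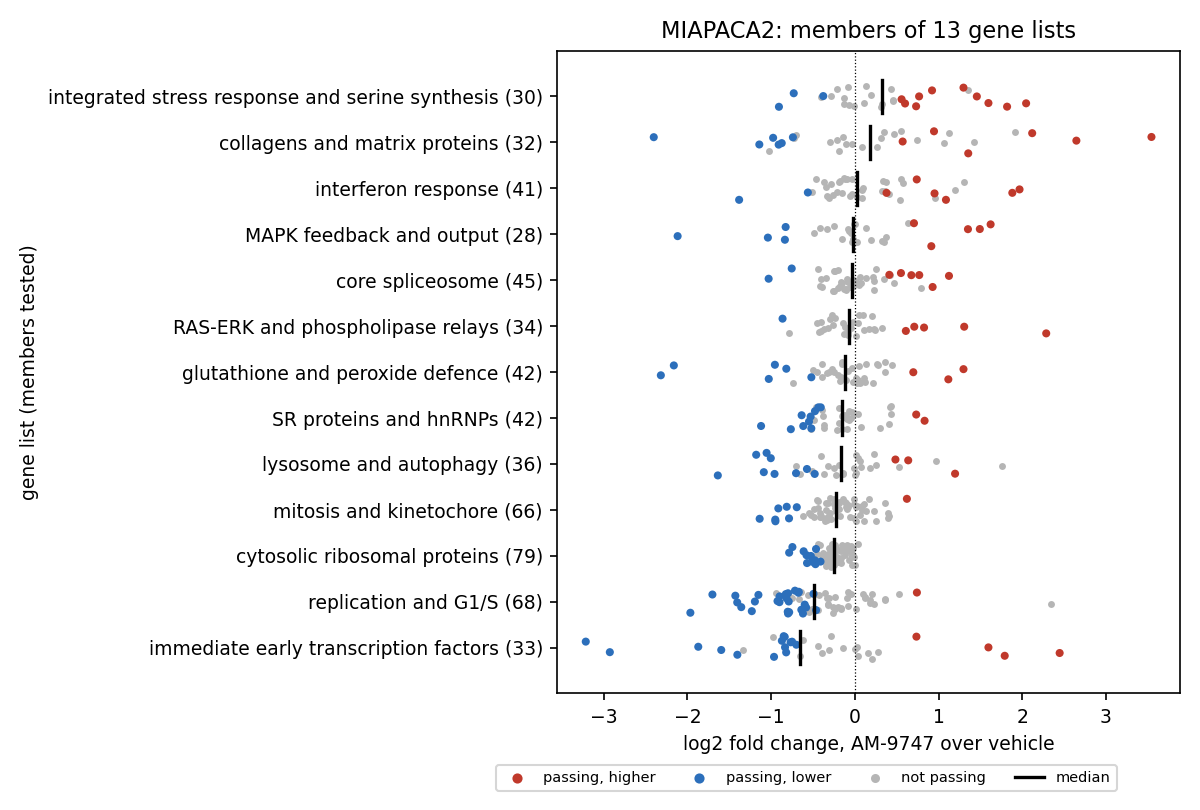
Log2 fold change of AM-9747 over vehicle for each tested member of 13 gene lists in MIAPACA2, with the number of members in brackets; red and blue points passed the test, black bars are medians and vertical scatter within a row carries no value. The immediate early and replication lists lie furthest to the left, and the stress response list furthest to the right.

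MMP14, DES and FUT3 were among the largest rises by fold. MMP14 (ENSG00000157227, chr14:22836557-22849027, + strand), a membrane-bound collagenase, was at 16.9, 5.95, 10.7 and 19.8 CPM in vehicle and 121, 149, 69.1 and 102 CPM with AM-9747, 8.28-fold higher (log2 3.05 ± 0.36, edgeR adjusted p = 0.000788). Its vehicle libraries spanned a wide range, lowest in replicate 2, and none reached the treated ones. The order of the 4 vehicle values followed their mitochondrial shares. The MMP14 call was kept in all 18 alternative fits, among them that with the mitochondrial percentage as a covariate, at log2 2.80 to 3.30. The part of that share in the result was not tested further. DES, the muscle intermediate filament desmin, was at 1.08, 1.93, 1.20 and 2.21 CPM and 13.4, 12.1, 14.2 and 16.2 CPM, 8.67-fold higher (log2 3.12 ± 0.26, edgeR adjusted p = 0.00024). Of 32 genes of the muscle-type cytoskeleton, DES, CNN1, TAGLN and NES rose (12.5%) and MYL6 and TTN fell (6.25%), beside 6.74% and 6.83% of all genes tested. The median log2 fold change was 0.02. CNN1 was near the lower limit of detection, at means of 0.0471 CPM in vehicle and 0.542 CPM with AM-9747. Its call was lost without any 1 library except AM-9747 replicate 3, and that of NES without vehicle replicate 1 or 3 or AM-9747 replicate 1, 3 or 4. Rises numbered 1 without vehicle replicate 3 and 2 without AM-9747 replicate 1 or 2; falls numbered 1 without vehicle replicate 3 or AM-9747 replicate 2 or 4, and 8 without AM-9747 replicate 3.

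FUT3, the fucosyltransferase that completes Lewis antigens such as CA19-9, was at 3.35, 0.890, 1.23 and 3.41 CPM and 22.9, 32.9, 9.94 and 24.6 CPM (log2 3.36 ± 0.48, edgeR adjusted p = 0.00178), lowest among the treated in replicate 3. PLVAP, a protein of membrane pores, and AOC3, a surface amine oxidase, rose by 3.31 and 2.99 on the log2 scale. STXBP2, a regulator of vesicle fusion, rose by 2.78 and the small GTPase RND3, which loosens actin fibres, by 2.19. CD274, the immune checkpoint ligand PD-L1, was at 2.09, 2.76, 3.13 and 1.54 CPM in vehicle and 10.1, 12.5, 13.2 and 9.41 CPM with AM-9747, with no overlap (log2 2.24 ± 0.25, edgeR adjusted p = 0.000639).

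WNK4, which controls chloride cotransport, went from 11 ± 3.36 to 66.3 ± 18.5 CPM (log2 2.60 ± 0.28), the sodium-gated potassium channel KCNT1 rose by 2.19, and SCNN1A, a subunit of the epithelial sodium channel, fell by 0.86. Of 36 channel and WNK genes listed, 5 rose and 2 fell; rises numbered 3 without vehicle replicate 3 or AM-9747 replicate 1 or 2, and falls 1 without those or AM-9747 replicate 4. SCNN1A did not pass in the fit of all 24 libraries.

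Matrix genes were divided. LAMB2, a laminin chain of basement membranes, was at 171, 108, 171 and 226 CPM in vehicle and 442, 469.9, 412 and 406 CPM with AM-9747 (log2 1.35 ± 0.19, edgeR adjusted p = 0.00171). COL18A1, the source of endostatin, fell from 599 ± 98.5 to 319 ± 36.8 CPM (log2 -0.91 ± 0.15), and MXRA8, a surface adhesion protein, from 16.5 ± 6.16 to 3.11 ± 0.993 CPM (log2 -2.40 ± 0.32). COL6A2 fell by 1.14, a call not reached in the fit of all 24 libraries. Of 32 genes 6 rose and 6 fell; the rises numbered 3 without vehicle replicate 3 or AM-9747 replicate 1 or 2, and the falls 3 without vehicle replicate 3 or AM-9747 replicate 4.

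Genes of innate immunity went both ways. NLRC5, the activator of HLA class I genes, was at 7.16, 6.29, 6.63 and 6.85 CPM in vehicle and 20.9, 22.8, 23.0 and 19.0 CPM with AM-9747, 3.18-fold higher with close replicates (log2 1.67 ± 0.14, edgeR adjusted p = 0.00024). The RNA sensor IFIH1 rose from 12.8 ± 1.5 to 27.3 ± 2.28 CPM (log2 1.09 ± 0.14) and IFI35, another interferon-induced gene, fell from 25.7 ± 2.59 to 9.85 ± 2.92 CPM (log2 -1.38 ± 0.20). PSMB10 and TAPBP, which prepare and load HLA peptides, fell by 1.09 and 0.67. The neutrophil chemokines CXCL1 and CXCL2 fell from 59.3 ± 4.41 to 24.9 ± 5.92 CPM and from 21.7 ± 6.25 to 7.0 ± 1.03 CPM (log2 -1.25 ± 0.18 and -1.63 ± 0.22), while IL18, an interleukin released by inflammasomes, was at 1.22, 1.5, 1.08 and 1.14 CPM and 3.66, 6.33, 5.69 and 6.46 CPM (log2 2.16 ± 0.28, edgeR adjusted p = 0.00114). Of 41 interferon response genes 6 rose and 2 fell, and 3 rose and 1 fell when vehicle replicate 1 or 3 or AM-9747 replicate 1, 2 or 4 was left out.

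An abundant tubulin and a long non-coding RNA were lower. TUBB, an abundant beta-tubulin whose paralogs may share its reads, was at 1978, 2152, 2207 and 1607 CPM in vehicle and 885, 749, 1260.0 and 1001 CPM with AM-9747 (log2 -1.03 ± 0.17, edgeR adjusted p = 0.0039). The paraspeckle RNA NEAT1 was at 1356, 683, 969 and 1757 CPM and 418, 439, 321 and 365 CPM (log2 -1.63 ± 0.25, edgeR adjusted p = 0.0027); its vehicle values were uneven, with replicates 1 and 4 high, the libraries that also had the highest mitochondrial shares of their group. The NEAT1 call was kept in all 18 alternative fits, among them that with the mitochondrial percentage as a covariate, at log2 -1.83 to -1.38. What part that share had in the result was not tested further. ALDH7A1, a mitochondrial aldehyde dehydrogenase, went from 1504 ± 75.5 to 717 ± 36.7 CPM (log2 -1.07 ± 0.11, edgeR adjusted p = 0.00038).

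Of 24 snoRNA host genes, SNHG3 and SNHG19 rose (log2 1.06 ± 0.13 and 1.33 ± 0.19) and SNHG15 and SNHG14 fell (log2 -0.63 ± 0.16 and -0.53 ± 0.16). The falls numbered 0 without vehicle replicate 1 or AM-9747 replicate 1 or 4, 1 without vehicle replicate 3 or 4 or AM-9747 replicate 2 or 3, and 0 with raw library totals. The histone H2BC21 fell from 28.1 ± 1.75 to 8.97 ± 1.35 CPM (log2 -1.65 ± 0.15), as did H2AC6 and H4C8. Only 22 of 44 histone genes listed were tested in these libraries of polyA RNA. The 3 falls became 1 without vehicle replicate 3 or AM-9747 replicate 1. Of 422 numbered ZNF genes 16 rose (3.79%) and 39 fell (9.24%), an order that turned to 31 and 16 with raw library totals; ZNF862 was the member with the smallest p, from 48.0 ± 11.1 to 169.9 ± 40.1 CPM (log2 1.82 ± 0.21). Without AM-9747 replicate 1, 2 or 4 in turn, 9, 8 and 8 rose and 11, 22 and 17 fell. Without vehicle replicate 3, 10 rose and 18 fell, and 23 fell without vehicle replicate 1. Rises numbered 25 without vehicle replicate 4 and 32 without AM-9747 replicate 3.

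The response of MIAPACA2 differed from that of BXPC3 in 1492 of 21084 genes (7.08%), above it in 966 (4.58%) and below it in 526 (2.49%), by the interaction term of edgeR's test over 16 libraries. It differed from that of PSN1 in 1224 of 21339 genes (5.74%), above it in 658 (3.08%) and below it in 566 (2.65%). The PSN1 count was 4302 without PSN1 vehicle replicate 1, and between 572 and 799 without any 1 of vehicle replicates 1, 2 and 3 or AM-9747 replicates 1, 2 and 4 of MIAPACA2, or of vehicle replicates 2 and 4 or AM-9747 replicates 1 and 2 of PSN1. Of protein-coding genes at 5 CPM or more in both fits, 241 differed from both lines in the same direction, 129 above and 112 below. The 2 differences share the 8 MIAPACA2 libraries. Mitochondrial genes took 17.4% to 43.8% of the counts in PSN1 vehicle and 7.98% to 31.1% in PSN1 with AM-9747, and the 100 most abundant genes 36.8% to 56.7% and 24.1% to 45.0%. PSN1 vehicle libraries held 16646 to 24738 genes with a count, and treated ones 22386 to 27120. The part of these shares in the differences from PSN1 was not tested.

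The stress response genes set MIAPACA2 apart from both lines. ASNS rose in MIAPACA2 (log2 1.43 ± 0.13 in the fit with BXPC3). It was at 144 ± 13.1 CPM in vehicle and 61.5 ± 10.9 CPM with AM-9747 in BXPC3 (log2 -1.23 ± 0.13) and at 328 ± 64.8 CPM in vehicle and 54.2 ± 7.93 CPM with AM-9747 in PSN1 (log2 -2.60 ± 0.18). The differences were 2.66 ± 0.18 (edgeR adjusted p = 3.71e-07) and 4.03 ± 0.24 (edgeR adjusted p = 9.33e-08). NUPR1 differed by 2.69 ± 0.35 from BXPC3 and 4.26 ± 0.46 from PSN1 (edgeR adjusted p = 0.000192 and 5.66e-05). PCK2, which fell in MIAPACA2, had log2 fold changes of -3.10 ± 0.18 in BXPC3 and -3.56 ± 0.22 in PSN1, with differences of 2.17 ± 0.23 and 2.63 ± 0.29 (edgeR adjusted p = 3.49e-05 and 8.00e-05). Of the list, 13 of 31 genes had a difference above BXPC3 and 18 of 32 a difference above PSN1; median log2 fold changes were 0.30 in MIAPACA2 beside -0.35 in BXPC3, and 0.36 beside -0.97 in PSN1.

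Immediate early genes differed from BXPC3 and PSN1 mostly downwards. FOS differed by -2.64 ± 0.33 from BXPC3, where it was at 423 ± 48.0 CPM in vehicle and 279 ± 61.2 CPM with AM-9747, and by -1.77 ± 0.43 from PSN1 (edgeR adjusted p = 0.000146 and 0.0244). DUSP1 differed by -1.6 ± 0.28 and -1.64 ± 0.39 (edgeR adjusted p = 0.00225 and 0.0225). For EGR1 the difference from BXPC3 was -2.02 ± 0.19 (edgeR adjusted p = 8.53e-06), while that from PSN1, -0.84 ± 0.31, did not pass (edgeR adjusted p = 0.116). Of 34 genes of the list, 11 differed below BXPC3 and 1 above, and 7 below PSN1 and 1 above. PLCG1, in contrast, had a difference of -0.05 ± 0.29 from BXPC3 and 0.64 ± 0.38 from PSN1, neither of which passed (edgeR adjusted p = 0.995 and 0.324).

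Among proliferation genes more differences passed against PSN1, whose groups also differed in mitochondrial share as given above, than against BXPC3. Of 68 replication genes, 7 had a difference below BXPC3 and 32 below PSN1; the median log2 fold changes were -0.51 in MIAPACA2, -0.32 in BXPC3 and 0.98 in PSN1. Of 66 mitotic genes, 13 had a difference below BXPC3 and 47 below PSN1, with medians of -0.26, 0.32 and 1.81 in that order. KIF20A differed by -1.04 ± 0.15 and -2.75 ± 0.29 (edgeR adjusted p = 0.000595 and 5.17e-05). CDC45 differed by -0.86 ± 0.24 and -1.96 ± 0.38 (edgeR adjusted p = 0.0385 and 0.00632). GINS4 had a log2 fold change of -1.54 ± 0.20 in BXPC3, and that difference, -0.19 ± 0.27, did not pass (edgeR adjusted p = 0.782).

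TUBB3, TUBB2A and RGS4 were among the genes chosen for a response below that of both lines. TUBB3, the beta-tubulin typical of neurons, fell in MIAPACA2, from 234 ± 15.4 to 122 ± 12.8 CPM (log2 -0.94 ± 0.12), and was at 11 ± 3.18 CPM in vehicle and 27.3 ± 3.46 CPM with AM-9747 in BXPC3 and 12.1 ± 5.78 CPM in vehicle and 35.7 ± 5.86 CPM with AM-9747 in PSN1; the differences were -2.27 ± 0.24 and -2.53 ± 0.40 (edgeR adjusted p = 2.58e-05 and 0.00174). TUBB2A, a close paralog with which it may share reads, fell too (log2 -1.0 ± 0.12), with differences of -2.10 ± 0.26 and -2.31 ± 0.31 (edgeR adjusted p = 0.000146 and 0.000586). RGS4, which shortens G protein signals, was at 184, 333, 268 and 166 CPM and 102, 109, 179 and 116 CPM in MIAPACA2, with overlapping groups and a call lost without vehicle replicate 2 or 3 (edgeR adjusted p = 0.0585 and 0.0862) or AM-9747 replicate 1, 2 or 4 (0.111, 0.0946 and 0.0984). It differed by -3.31 ± 0.34 from BXPC3 and -6.70 ± 0.76 from PSN1 (edgeR adjusted p = 2.52e-05 and 0.000102). MMP14 rose in MIAPACA2 beyond both lines, by 3.17 ± 0.42 over BXPC3 and 1.71 ± 0.45 over PSN1 (edgeR adjusted p = 0.000201 and 0.0355).

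**Figure D5:**
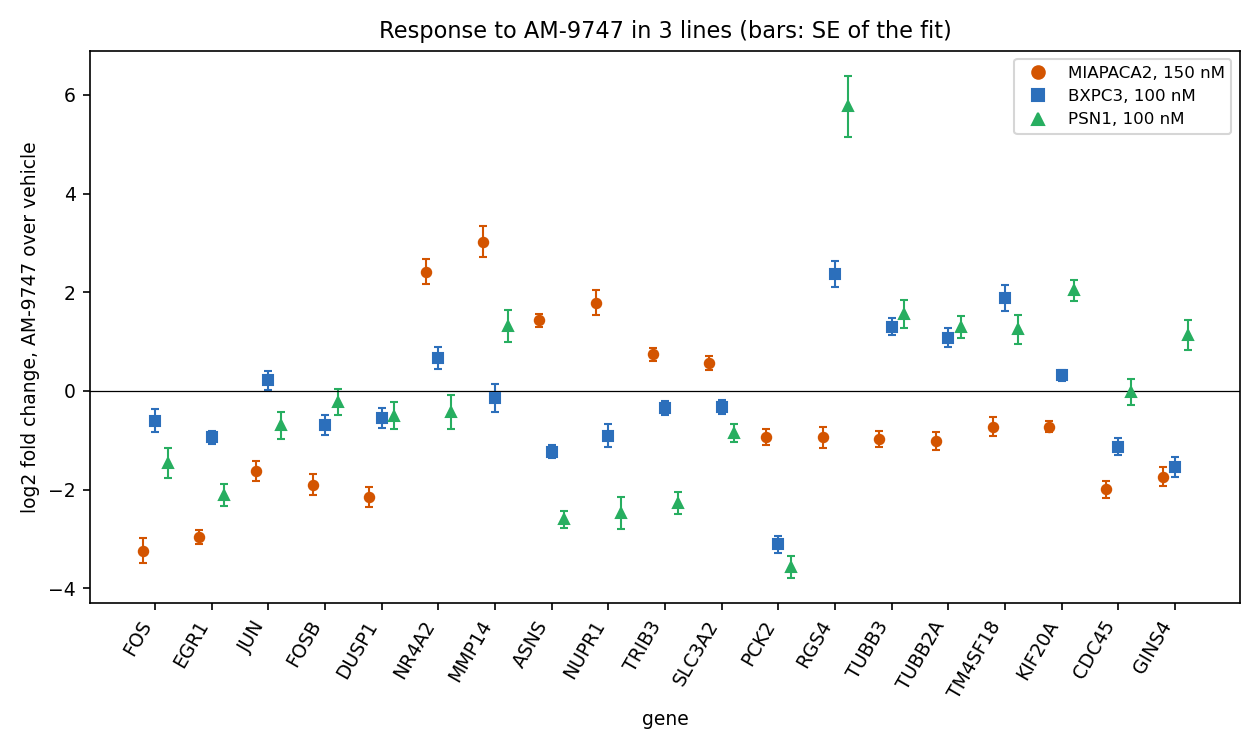
Log2 fold change of AM-9747 over vehicle for 19 genes in MIAPACA2 (orange circles, 150 nM), BXPC3 (blue squares, 100 nM) and PSN1 (green triangles, 100 nM); bars are the SE of the fit, and the MIAPACA2 values are those of the fit with BXPC3. ASNS, NUPR1 and TRIB3 lie above 0 in MIAPACA2 and below it in the other lines, and TUBB3, TUBB2A and TM4SF18 the reverse.

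Some genes that vehicle MIAPACA2 cells hardly expressed, and that the other lines express well, gained reads with AM-9747. SLC43A3, a purine transporter, was at 0.0360, 0, 0.145 and 0.154 CPM in vehicle and 2.80, 1.96, 2.22 and 1.56 CPM with AM-9747 (log2 4.57 ± 0.71, edgeR adjusted p = 0.00256), with means of 26.3 CPM in BXPC3 vehicle and 259 CPM in PSN1 vehicle. MORC4, a chromatin ATPase that was too low for the test of the 8 libraries, had 0 counts in all 4 vehicle libraries and 26, 2, 16 and 14 counts in AM-9747 replicates 1 to 4. GATA6, a lineage factor of pancreatic cancer, had 0 in all vehicle libraries and 8, 3, 0 and 5 counts. These levels are small, since GATA6 was at 64.8 CPM in BXPC3 vehicle. A count of 0 allows up to 3 counts, which not every treated count of MORC4 and GATA6 exceeds. The genes named here were chosen for a response above both lines, so their direction is built into the choice. SLC43A3 entered the test through its treated libraries alone, so its adjusted p is no separate support for a rise.

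Genes abundant in another line and nearly absent from MIAPACA2 gave low sums in all 8 libraries. The sets were chosen after the data were seen, with at least 50 CPM in the other line, below 0.3 CPM in MIAPACA2 vehicle and below 1 CPM in the third line. Because low vehicle values were part of the choice, higher sums with AM-9747 are partly built into it. The 53 genes abundant in BXPC3 summed to 1.89 to 3.84 CPM in vehicle and 3.78 to 7.98 CPM with AM-9747, where BXPC3 libraries held at least 10059 CPM; 22 of the 53 had 0 counts in all 4 treated libraries, among them KRT5, a basal keratin at 2841 CPM in BXPC3 that had up to 7 counts in a vehicle library. The 35 genes abundant in PSN1 summed to 1.63 to 3.26 CPM and 4.19 to 6.57 CPM, and 9 of them had 0 counts in all treated libraries. Whether reads from other libraries have a part in these sums was not tested.

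Most markers of other cell types were at or near 0, apart from COL1A2, CD68, CEL and SYP. The acinar genes PRSS1, CPA1, CPB1, CELA3A, PNLIP and AMY2A and the endocrine genes INS, GCG, SST, PPY and CHGA had 0 counts in all 8 libraries, and so did CD3E and HBB of blood cells and TEK of endothelial cells. The summed level of the acinar list was 2.48 to 9.57 CPM in vehicle and 10.2 to 27.8 CPM with AM-9747, nearly all of it CEL. The endocrine list, all of it SYP, summed to 5.44 to 7.30 CPM and 8.70 to 12.6 CPM, and the endothelial list to 0.212 to 0.586 CPM and 0.510 to 0.771 CPM. The blood list summed to 4.13 to 14.1 CPM in vehicle and 8.59 to 31.3 CPM with AM-9747. Most of that was CD68, at 2.62 to 12.9 and 4.81 to 28.2 CPM, while PTPRC, which marks white blood cells, was below 0.2 CPM. ITGAM, an integrin of myeloid cells, rose from 0.361 ± 0.271 to 1.72 ± 0.994 CPM (log2 2.24 ± 0.64, edgeR adjusted p = 0.0413), a call lost without any 1 library except vehicle replicate 4 and AM-9747 replicate 3. The fibroblast list summed to 1718 to 3112 CPM in vehicle and 1159 to 2046 CPM with AM-9747, nearly all of it COL1A2, while COL3A1, DCN, LUM and FAP were each below 0.15 CPM.

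Of ductal markers, SOX9 and KRT19 were present, at 149 to 192 and 23.6 to 31.7 CPM over the 8 libraries, and CFTR was at 0; the list summed to 198 to 230 CPM in vehicle and 194 to 226 CPM with AM-9747. MUC1, a mucin of epithelial surfaces, rose from 11.7 ± 1.5 to 20 ± 5.56 CPM (log2 0.77 ± 0.21, edgeR adjusted p = 0.0359), with overlapping groups and a call lost without any 1 library except vehicle replicate 4 and AM-9747 replicate 3. EPCAM, an epithelial adhesion protein, passed as higher at a low level, 0.296 to 1.44 CPM with AM-9747 and at most 0.121 CPM in vehicle (edgeR adjusted p = 0.0211), and was lost without vehicle replicate 3 or AM-9747 replicate 2 and too low to be tested without AM-9747 replicate 1 or 4. The part of these markers in the other results was not tested.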

How the data were processed

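RNA-seq covered the lines MIAPACA2, BXPC3 and PSN1, each in 4 vehicle and 4 AM-9747 libraries. Per the labels' protocols, polyA RNA from a column extraction was made into strand-marking libraries. Per the submitters' processing notes the tools were fastp 0.19.8, HISAT2 2.2.0, R 4.0.2 and DESeq2 1.34.0, with the GRCh38 build; of the counting program, its strand setting and its treatment of multi-mapped reads nothing is stated, so values of near-identical genes and of overlapping genes are uncertain. The authors deposited 1 table of raw counts for 60366 Ensembl entries, the unit used throughout. Of these, 56271 matched GENCODE 29 by ID, which gave coordinates and biotypes.

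Genes were filtered by filterByExpr by group, scaled by TMM and tested with edgeR 4.0.16 (R 4.3.3) by its quasi-likelihood test, with robust estimation of dispersions, which had not been written down in the test plan. Benjamini-Hochberg adjustment ran over all 18090 genes tested, and an adjusted p below 0.05 passed. Levels are TMM-scaled CPM, so they do not compare genes of different length. The SE is the log2 fold change divided by the square root of the F statistic. The residual degrees of freedom were 6 and the biological coefficient of variation was 32.13%. Differences between lines were interaction terms over 16 libraries each. No vehicle or AM-9747 library was a duplicate of another in its group: the smallest chi-square per gene over 12 pairs was 14.34.

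The test was tested on simulated data in which 200 of 18090 genes were changed. After filtering, 17451 genes were tested, among them 62 changed genes of each fold. Changed genes removed by the filter were not counted as missed. The test found 3.23%, 51.6% and 69.4% of those changed 1.5-fold, 2-fold and 4-fold, and 6 of 83 calls (7.23%) were false. In the data 2454 genes passed, so these shares do not carry over to them. Intervals of a count of 0 (3 counts) cover counting error only.

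Genes were named by rule: 12 key genes, the 15 largest rises and falls by fold and 10 each way by CPM at a mean of at least 5 CPM without overlap, 5 each way of other biotypes, 8 each way that differ from both other lines, and up to 5 passing members of each list. Names outside it, including members that complete a count of 5 or fewer, were picked with their values known. The members and lists were chosen with earlier results of these data known. Alternatives were DESeq2 1.42.0, voom (limma 3.58.1), other scalings and filters, a replicate block, a mitochondrial covariate, a fit of all libraries and each library left out. Promoters were read from RefSeq's GRCh38.p14 table and matched by symbol, for 11210 genes tested. Some genes are not reported here.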

Additional observations from a re-analysis of the deposited data

Results flagged for a closer look

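In 22 of 310 sets of 4 libraries examined, for the genes with values above and for 4 library measures, the most extreme library lay further from its nearest neighbour than Dixon's 95% critical ratio of gap to range allows; chance does this in about 1 of 20 sets. AM-9747 replicate 3 was the library apart in 12 of the gene sets. Its value, set beside the range of the other 3 and followed by the ratio, was the highest for CAT (17.1 against 8.51 to 9.37 CPM; 0.901), CDK4 (86.5 against 53.7 to 56.1 CPM; 0.927), EGR1 (49.3 against 36.6 to 38.5 CPM; 0.852) and GINS4 (91.4 against 68.7 to 71.2 CPM; 0.889). It was also the highest for MCM5 (28.7 against 16.9 to 18.1 CPM; 0.895), PRPF19 (81.9 against 52.3 to 53.2 CPM; 0.968), SHC1 (389 against 255 to 268 CPM; 0.901) and TAPBP (292 against 249 to 256 CPM; 0.831). The same held for ZFP36L1 (197 against 141 to 148 CPM; 0.871). It was the lowest for AOC3 (13.4 against 21.6 to 22.8 CPM; 0.873), HNRNPH3 (258 against 356 to 368 CPM; 0.892) and PMAIP1 (19.5 against 21.9 to 22.3 CPM; 0.87). In all 12 genes the replicate lay on the side of the vehicle libraries. The share of counts in the 100 most abundant genes stood apart in the AM-9747 group too, at 24.3% in replicate 3 and 31.7% to 32.6% in the others (ratio 0.897), beside a mitochondrial share of 7.23% in that replicate; the part of either in the values was not tested.

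AM-9747 replicate 2 stood apart for ETV4 (33.8 against 45.4 to 46.9 CPM; 0.882), KCNT1 (15.2 against 11.5 to 12 CPM; 0.88) and MDM4 (53.4 against 42.7 to 43.9 CPM; 0.89). Vehicle replicate 1 stood apart for COL6A2 (270 against 384 to 405 CPM; 0.842) and HMOX1 (26.6 against 18 to 19.2 CPM; 0.86). Vehicle replicate 2 stood apart for FOSB (13.6 against 23.4 to 24.5 CPM; 0.903), PLCG2 (32.7 against 28.4 to 28.9 CPM; 0.892) and SNHG19 (10.5 against 17.4 to 18.5 CPM; 0.859). Vehicle replicate 4 stood apart for PCK2 (53 against 63.7 to 65.3 CPM; 0.872). 

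The response differed between lines by the interaction term of edgeR's test, in 1492 genes between MIAPACA2 and BXPC3 and in 1224 between MIAPACA2 and PSN1.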

How the results depend on the processing

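With DESeq2 3708 genes passed, 1903 of them higher. With raw library totals 1911 rose and 633 fell, 75.1% higher in place of 49.7%. With the mitochondrial percentage as a covariate 6502 passed (3037 higher, 3465 lower), and in the fit of all 24 libraries 1155 (622 higher, 533 lower). As each library was left out in turn, 1142 to 3272 passed, 578 to 1534 higher and 564 to 1738 lower, fewest without AM-9747 replicate 1 and most without AM-9747 replicate 3. The difference from BXPC3 held 2626 genes with DESeq2 and 1072 to 1842 as libraries were left out. The difference from PSN1 held 2868 with DESeq2, and 572 to 4302 as libraries were left out. The cause of these changes was not tested. With size factors 2460 genes passed, with no filter 2309, with a mean of at least 5 CPM 2188, with voom 2678 and without mitochondrial genes 2483. Of 294 single genes followed, 280 passed, 184 of them without any 1 library, and none of the 280 changed sign in these settings; the fold changes of PRMT5, MDM4 and CDKN1A, which did not pass, fell on both sides of 0.

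No pairing of the libraries by replicate number was seen, but 4 libraries a group are too few to show that it is absent. Deviations of same-numbered libraries correlated at -0.255 to 0.224, those of other numbers at -0.407 to 0.432, and 0 of 4 AM-9747 libraries correlated best with their own number. With the replicate number as a block 1744 genes passed, 851 higher and 893 lower, and the difference from PSN1 held 2141 genes.

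At this spread (a biological coefficient of variation of 32.13%), changes of 1.5-fold were mostly missed in simulated data (3.23% found). The simulation changed 200 genes, fewer than the 2454 that passed in the data. That makes the adjusted cutoff stricter in the simulation, so its share found does not carry over to the data. Genes that did not pass may still have changed by that much. Counts of calls depend on depth and spread, and a gene that did not pass is not shown to be unchanged.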
